A study of Homo sapiens with 9 samples.

Results

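The genes described here are 9 genes of hyaluronan handling: the depolymerase gene CEMIP, the synthase genes HAS2 and HAS3, the hyaluronidase genes HYAL1, HYAL2 and HYAL3, the receptor genes CD44 and HMMR, and TNFAIP6, whose product binds hyaluronan in the matrix. They were selected by function from genes whose values on these 9 arrays had already been seen. Which of those values led to the choice is not recorded, and there was no threshold. HYAL1 was not analysed here, since the probe table used pairs no single-gene probe set with it. The other 8 genes had 25 probe sets, of the 54675 on the array. HYAL3 was too dim for the test across genes, so 7 of the 12587 tested genes are hyaluronan genes. Because the genes were chosen with results known, their differences and p-values describe these arrays and are not independent evidence.

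Hyaluronan is a long unbranched sugar polymer that HAS enzymes extrude through the plasma membrane from UDP-glucuronate and UDP-N-acetylglucosamine. It fills much of the brain's extracellular matrix and of the matrix that glioma cells invade. It is shortened by hyaluronidases and by CEMIP, is held in cables and coats by link-domain proteins such as TNFAIP6, and is sensed by CD44. HMMR was named as a hyaluronan receptor, but it also sits on the mitotic spindle.

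Transcripts were measured on 9 human expression arrays from U87, an established human glioma line, 72 h after lipid transfection with 50 nM of a duplex. There were 3 arrays for miR-376a*A, the unedited form of the microRNA, 3 for miR-376a*G, the edited form, and 3 for the control duplex. The labels call the replicates biological and name no culture or day, so p-values measure the spread between these arrays, and every array comes from the same cell line. The name miR-376a* is an older name of the 5′ arm of the miR-376a hairpin. The labels give no duplex sequence. The RefSeq mature sequence (GRCh38.p14, chr14:101040788-101040809, + strand) is shown to identify the microRNA, with its seed, bases 2 to 8, in capitals:
hsa-miR-376a-5p: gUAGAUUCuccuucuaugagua

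Replicate 1 of miR-376a*A and replicate 1 of control, as labelled, stood apart from the others of their labels. Pearson's r across the tested genes, which are not independent replicates, was 0.925 and 0.934 between the miR-376a*A array and the other two of its label, but 0.987 and 0.99 against control replicates 2 and 3. For the control array it was 0.935 and 0.934 within its label, but 0.99 and 0.982 against miR-376a*A replicates 2 and 3. On each of these arrays 6 of the 7 tested hyaluronan genes lay nearer to the other label's replicates 2 and 3, as did 77% and 75.2% of all tested genes. Whether the labels of these arrays were exchanged was not tested, and every value given as labelled for miR-376a*A or control holds only if they were not. Labels were kept as given, and the differences of the 7 tested hyaluronan genes are also given on the 7 arrays without both. Those 7 were chosen with their values known, so p-values on them are not independent of that choice. Median signal per array was 18 to 24.6. Of 6 markers fixed for the line, VIM and TNC were bright (1460 to 2970), NES and SOX2 read 10.2 to 61.6, and the glial genes GFAP and S100B were at 0.68 to 5.66, below the median of every array. Summed markers of macrophages, endothelium and epithelium (4, 3 and 2 genes with a probe set) reached at most 113, 135 and 28.6 on miR-376a*A arrays, 99.9, 113 and 43.2 on miR-376a*G arrays, and 104, 159 and 14.4 on control arrays. Of these 15 markers 7 were bright enough to be tested (VIM, NES, TNC, SOX2, AIF1, CSF1R and PECAM1), and none of the 7 passed as labelled. Between miR-376a*A and control no tested gene of any kind passed as labelled. The array labelled control replicate 1 read 135 for PECAM1, against 39.2 and 38.7 on control replicates 2 and 3. For CSF1R it read 65.5 against 36.1 and 22.6, and for AIF1 13.4 against 14.8 and 11.2. PECAM1 read 47.7, 122 and 78.7 on miR-376a*A replicates 1, 2 and 3, and 97.8, 87.9 and 72.9 on those of miR-376a*G. In the same order CSF1R read 22.7, 65.6 and 48, and 36.3, 30.8 and 25. AIF1 read 8.59, 21.6 and 14, and 28.9, 22.2 and 26.3. Marker differences on the 7 arrays without both are not given. No epithelial marker was tested.

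In the comparison of the unedited form with the control duplex, 0 of 7 hyaluronan genes had an adjusted p under 0.05 by limma with the labels as given. Among all tested genes 0% passed and 3.68% had an unadjusted p under 0.05, which no hyaluronan gene had. On the 7 arrays 6 passed, with CEMIP, HAS2, HYAL2 and CD44 higher and HMMR and TNFAIP6 lower. There 41.9% of all tested genes passed, 19% higher and 22.9% lower. Groups did not overlap for 0 of 7 genes as labelled (6.15% of all genes) and for 6 of 7 on the 7 arrays (69.5%). In the comparison of the edited form with the control duplex 0 of 7 passed as labelled, where 33.4% of all genes did, and HMMR alone had an unadjusted p under 0.05 (0.029), as 44% of all genes did. Without both arrays 4 passed, CEMIP, HAS2 and HMMR higher and TNFAIP6 lower, against 56.1% of all genes (31.2% higher and 25% lower). Groups did not overlap for 1 of 7 as labelled, HMMR (53.4% of all genes), and for 5 of 7 on the 7 arrays (73.5%). Between the unedited and the edited form 2 of 7 passed as labelled, CD44 higher and HMMR lower, against 38.2% of all genes (16.4% higher and 21.8% lower). Without both arrays 6 passed, CEMIP, HAS2, HYAL2 and CD44 higher and HMMR and TNFAIP6 lower, against 59.6% of all genes (25.7% higher and 34% lower). Groups did not overlap for 3 of 7 as labelled, HYAL2, CD44 and HMMR (53.5% of all genes), and for 6 of 7 on the 7 arrays (72%). The comparisons with the control duplex share the control arrays. The direction of calls over all genes moved with the scaling. For miR-376a*G against control 2268 genes were higher and 1937 lower as deposited, 1068 and 2596 with arrays centred on their medians, and 5592 and 946 with arrays scaled to the hybridisation controls, which are transcripts added in known amounts. Between the unedited and edited forms the counts were 2065 higher and 2739 lower as deposited, 2965 and 1262 after centring, and 677 and 8205 with the hybridisation controls.

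As labelled, the median log2 difference of the 7 genes was 0.14 between miR-376a*A and control, -0.16 between miR-376a*G and control and 0.34 between the forms, and the medians of all tested genes were -0.02, 0.12 and -0.14. Without both arrays the genes' medians were 0.38, 0.04 and 0.47, and those of all genes were 0.01, 0.13 and -0.12. Each median pools members of opposite sign.

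**Figure D1:**
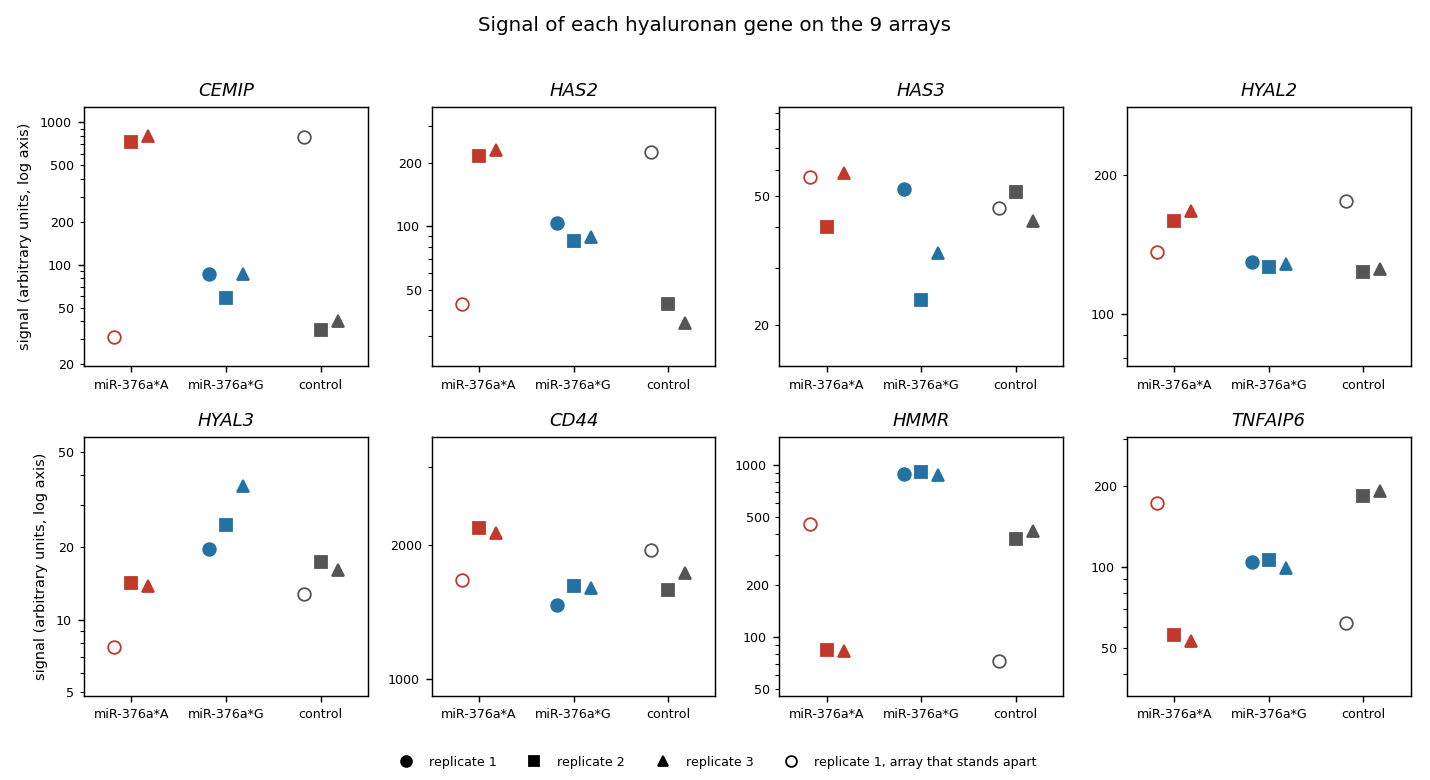
Signal of the 8 hyaluronan genes with a probe set (representing probe set, arbitrary units, log axis) on each of the 9 arrays, by labelled group. Open circles mark replicate 1 of miR-376a*A and replicate 1 of control. In the CEMIP panel the control arrays span 34.6 to 792 and the miR-376a*A arrays 30.9 to 800, while the miR-376a*G arrays stay between 58.6 and 86.

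CEMIP encodes a protein that cuts high-molecular-weight hyaluronan into smaller pieces and is needed for hyaluronan breakdown in skin fibroblasts. On the log2 scale it had the widest range over the 9 arrays of the 7 tested hyaluronan genes. Its signal, given here and throughout in the order of replicates 1, 2 and 3, was 30.9, 732 and 800 with miR-376a*A, 86, 58.6 and 85.6 with miR-376a*G, and 792, 34.6 and 40.4 with control. The 3 arrays above 700 were miR-376a*A replicates 2 and 3 and the array labelled control replicate 1, so the labelled groups miR-376a*A and control overlapped over their whole range. The miR-376a*G arrays lay between, closer to control replicates 2 and 3. Its mean was 521 ± 426 with miR-376a*A, 76.7 ± 15.7 with miR-376a*G and 289 ± 436 with control (SD, n = 3 each).

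As labelled, CEMIP differed between miR-376a*A and control by a log2 value of 1.33 (SE 1.42, adjusted p = 0.886 by limma). It differed by -0.46 between miR-376a*G and control (SE 1.42, adjusted p = 0.827), and by 1.80 between the unedited and edited forms (SE 1.42, adjusted p = 0.344). Without both arrays the differences, in the same order, were 4.32 (SE 0.18, adjusted p = 8.32e-08), 1.00 (SE 0.17, adjusted p = 0.00048) and 3.32 (SE 0.17, adjusted p = 5.25e-08). The sign for miR-376a*G against control turned without the array labelled control replicate 1. Leaving out the array labelled miR-376a*A replicate 1 alone also gave 3.32 between the forms, at an adjusted p of 0.0375. RNA from whole cultures cannot tell a larger share of cells expressing CEMIP from more of its RNA per cell.

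A dimmer CEMIP probe set followed the same arrays. It read 2.5, 36.4 and 47.9 for miR-376a*A, 3.69, 3.04 and 2.9 for miR-376a*G, and 42.9, 2.83 and 3.28 for control. Its 6 low values were no higher than GFAP's highest, and far below the array medians, so no difference is given for it and it says nothing about the edited form against control.

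The CEMIP promoter is shown because CEMIP had the largest difference between miR-376a*A and control. RefSeq places the 80 bases before its start at chr15:80779290-80779369 (GRCh38.p14, + strand), with the only match found to any motif searched in capitals, a TATAAA 30 bases before the start:
CEMIP promoter: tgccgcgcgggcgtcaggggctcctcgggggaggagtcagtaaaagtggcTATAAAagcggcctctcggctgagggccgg
Of 35116 promoter windows of 250 bases in the RefSeq table, 10.7% hold TATAAA on either strand. The other motifs searched on both strands in the same windows were TTTGAA (the cell cycle homology region, 13.3% of windows), CCAAT (32%) and TGANTCA (the AP-1 site, 6.57%). The windows of CD44, HAS3, HYAL2 and HYAL3 held none of the 4. Matches to such short motifs are letters in a window, not evidence of binding.

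HAS2 encodes the synthase that makes most of the long hyaluronan of mesenchymal cells. Its signal was 42.9, 215 and 230 with miR-376a*A, 104, 85.1 and 88.7 with miR-376a*G, and 224, 42.6 and 34.6 with control. The same 3 arrays as for CEMIP were the highest, and again the edited-form arrays lay between. The means were 163 ± 104, 92.7 ± 10.2 and 100 ± 107 for miR-376a*A, miR-376a*G and control (SD, n = 3 each). As labelled no comparison passed, with log2 differences of 0.88 for miR-376a*A against control (SE 0.78, adjusted p = 0.886), 0.41 for miR-376a*G against control (SE 0.78, adjusted p = 0.716) and 0.48 between the forms (SE 0.78, adjusted p = 0.655).

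HAS2 was, over the 7 arrays, higher with either form than with the control duplex, and higher with the unedited than with the edited form. The log2 differences were 2.5 for miR-376a*A against control (SE 0.15, adjusted p = 9.18e-07), 1.25 for miR-376a*G against control (SE 0.14, adjusted p = 2.68e-05) and 1.26 between the forms (SE 0.14, adjusted p = 1.72e-05). A further HAS2 probe set gave 1.79, 0.62 and 1.17 in the same order, all with an adjusted p below 0.05 on those arrays (1.17e-04, 0.0241 and 5.25e-04).

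HAS3 encodes a synthase that makes shorter chains. Its brighter probe set read 57, 39.9 and 58.5 for miR-376a*A, 52.3, 23.9 and 33.2 for miR-376a*G, and 45.9, 51.3 and 41.8 for control. The groups overlapped, and the edited-form arrays spread most. No comparison passed as labelled or on the 7 arrays as deposited, where the differences were 0.06, -0.41 and 0.47 (adjusted p = 0.902, 0.262 and 0.198) for miR-376a*A against control, miR-376a*G against control and between the forms. With the 7 arrays centred on their medians, HAS3 was lower with miR-376a*G than with control (-0.72, adjusted p = 0.0291) and higher with the unedited than with the edited form (0.66, adjusted p = 0.039), while the hybridisation controls gave 0.005 and -0.22 (adjusted p = 0.989 and 0.532). Of all 9 arrays, leaving out miR-376a*G replicate 1 also gave a call between the forms (0.84, adjusted p = 0.0382). A dimmer probe set went the other way with the edited form. It read 27.2, 23.4 and 25.9 for miR-376a*G, against 18, 19.5 and 17.6 for control, a log2 difference of 0.45 that did not pass (SE 0.19, adjusted p = 0.0994 in the fit of every probe set). The probe sets of HAS3 thus disagree on its order across groups.

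HYAL2 encodes a membrane-anchored hyaluronidase that makes the first cut in long chains at the cell surface. Its only single-gene probe set read 136, 159 and 167 for miR-376a*A, 129, 126 and 128 for miR-376a*G, and 175, 123 and 125 for control. The miR-376a*A arrays all lay above the miR-376a*G arrays, as 53.5% of tested genes also kept those groups apart in either direction. The difference between the forms was 0.27 as labelled (SE 0.16, adjusted p = 0.218) and 0.35 on the 7 arrays (SE 0.10, adjusted p = 0.00799), with 0.52 (adjusted p = 0.0188) on centring the 9 arrays on medians, but it was -0.40 and -0.33 once arrays were scaled to the hybridisation controls (adjusted p = 0.0711 and 0.0506). Against control, miR-376a*A differed by 0.14 as labelled and by 0.39 on the 7 arrays (SE 0.10, adjusted p = 0.0116), a call lost on those arrays by centring on medians or by the hybridisation controls (adjusted p = 0.115 and 0.601). The miR-376a*G arrays differed from control by -0.12 as labelled (adjusted p = 0.583) and 0.04 on the 7 arrays (adjusted p = 0.739), where the hybridisation controls gave 0.45 (adjusted p = 0.0144) and centring -0.27 (adjusted p = 0.0796).

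HYAL3 encodes a hyaluronidase-like protein of little known activity. It read 7.74, 14.2 and 13.9 for miR-376a*A, 19.7, 24.8 and 36.1 for miR-376a*G, and 12.8, 17.4 and 16.1 for control. It exceeded its array's median on too few arrays for the test. All 3 edited-form arrays lay above the other 6, at a signal close to the array medians, and no p-value is given.

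CD44 encodes the main cell-surface receptor for hyaluronan, which links it to the actin cortex through ezrin, radixin and moesin. Its representing probe set read 1670, 2190 and 2130 for miR-376a*A, 1470, 1620 and 1600 for miR-376a*G, and 1950, 1590 and 1730 for control. The edited-form arrays all lay below the unedited-form arrays, and both overlapped control. The means were 2000 ± 288, 1560 ± 78.2 and 1750 ± 179 for miR-376a*A, miR-376a*G and control (SD, n = 3 each).

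Between the forms CD44 differed by 0.34 (SE 0.12, adjusted p = 0.0465 by limma) as deposited and by 0.47 on the 7 arrays (SE 0.08, adjusted p = 3.39e-04). With arrays scaled to the hybridisation controls the sign turned, to -0.33 (adjusted p = 0.0248) on all arrays and -0.22 (adjusted p = 0.0123) on the 7. That scaling moved the median of all genes to -0.81, against -0.14 as deposited, and under either scaling CD44 lay 0.48 above that median (0.485 before rounding). The call was also lost without any 1 array other than miR-376a*A replicate 1 and control replicate 1 (adjusted p = 0.051 to 0.146).

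Against control CD44 differed by 0.18 for miR-376a*A (SE 0.12, adjusted p = 0.886) and -0.16 for miR-376a*G (SE 0.12, adjusted p = 0.32) as labelled. Without both arrays it was 0.38 higher with miR-376a*A (SE 0.09, adjusted p = 0.00414), a call lost there on centring or on scaling to the hybridisation controls (adjusted p = 0.144 and 0.295). For miR-376a*G the difference there was -0.09 (SE 0.08, adjusted p = 0.367), which became 0.33 (adjusted p = 0.00112) with the hybridisation controls as the scale. Centring on medians instead gave -0.39 on the 7 arrays (adjusted p = 0.017) and -0.39 on all 9 (adjusted p = 0.0202), so the direction for the edited form differed with the scaling.

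CD44 had 13 probe sets, of which 12 could be tested, and they did not move alike with the edited form. Without both arrays 10 of 12 were higher with miR-376a*A than with control and none lower, with differences of 0.00 to 1.11. With miR-376a*G 7 of 12 were higher than control and none lower, although the brightest, which represents the gene, differed by -0.09. The largest of these was 0.83 (adjusted p = 6.59e-06), on a probe set that read 966, 1040 and 1020 for miR-376a*G and 1040, 585 and 550 for control. Between the forms 6 of 12 were higher with miR-376a*A, at most by 0.75, and none lower. As labelled, 0 of 12 passed in either comparison with control and 1 of 12 between the forms. Of all tested genes 41.9% passed without both arrays for miR-376a*A against control, 56.1% for miR-376a*G against control and 59.6% between the forms. As labelled these shares were 0%, 33.4% and 38.2%. The share over all probe sets is not given, and the probe set counts were not repeated under other scalings. CD44 transcripts vary by alternative exons, and the files do not say which exons each probe set reads.

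**Figure D2:**
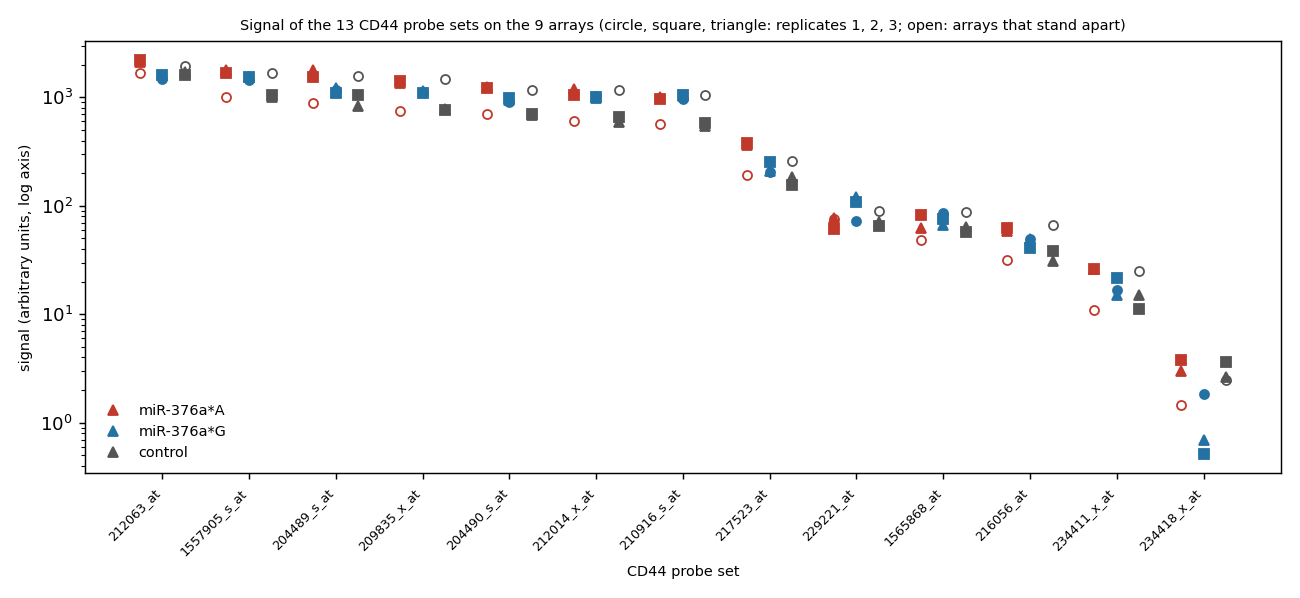
Signal of the 13 CD44 probe sets (arbitrary units, log axis) on the 9 arrays, ordered by mean level, with labelled groups side by side and open circles for the arrays that stand apart. The brightest probe set reads 1470 to 2190 over all arrays, while another reads 1400 and 1360 on miR-376a*A replicates 2 and 3 and 1470 on control replicate 1, above its other 6 arrays (755 to 1140).

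HMMR, also called RHAMM, binds hyaluronan outside the cell and spindle microtubules within it, and its transcript peaks in dividing cells. Its signal was 454, 84.2 and 82.8 with miR-376a*A, 889, 918 and 873 with miR-376a*G, and 72.8, 371 and 412 with control. Every edited-form array lay above every other array. The lowest 3 were miR-376a*A replicates 2 and 3 and the array labelled control replicate 1, the arrays on which CEMIP and HAS2 were highest. HMMR averaged 207 ± 214 with miR-376a*A, 893 ± 22.6 with miR-376a*G and 285 ± 185 with control (SD, n = 3 each).

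As labelled, HMMR was lower with the unedited than with the edited form, with a log2 difference of -2.59 (SE 0.77, adjusted p = 0.0261 by limma), and of -3.40 on the 7 arrays (SE 0.08, adjusted p = 1.54e-09). As labelled this call was lost without any 1 of miR-376a*A replicates 2 and 3 or the 3 miR-376a*G arrays (differences of -2.18 to -2.61, adjusted p = 0.0691 to 0.0954), and on centring arrays on their medians (adjusted p = 0.0528). Between the edited form and control the difference was 1.99 (SE 0.77, adjusted p = 0.0755), which passed without miR-376a*A replicate 1 (adjusted p = 0.019), and on the 7 arrays it was 1.19 (SE 0.08, adjusted p = 7.51e-07). A second probe set read 697, 730 and 672 for miR-376a*G, against 64.8, 254 and 213 for control, and passed as labelled (2.19, SE 0.64, adjusted p = 0.0274 in the fit of every probe set). Between the unedited form and control HMMR differed by -0.60 as labelled (SE 0.77, adjusted p = 0.894) and by -2.21 on the 7 arrays (SE 0.09, adjusted p = 7.51e-08).

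The HMMR promoter is printed because its letters hold motifs known from promoters of mitotic genes. The 200 bases before the RefSeq start (GRCh38.p14, chr5:163460432-163460631, + strand) are given with matches to CCAAT on either strand and to TTTGAA in capitals:
HMMR promoter: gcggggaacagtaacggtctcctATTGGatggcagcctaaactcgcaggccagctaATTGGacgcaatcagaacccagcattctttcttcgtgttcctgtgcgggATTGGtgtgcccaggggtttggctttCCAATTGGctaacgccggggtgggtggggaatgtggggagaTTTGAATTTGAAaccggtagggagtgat
TTTGAA occurs as 2 adjacent copies, 28 and 22 bases before the start, and CCAAT occurs 5 times between 177 and 66 bases before it, the last 2 of them overlapping on opposite strands. No other hyaluronan gene with a window in the table held TTTGAA there, and 13.3% of all windows hold it. HAS2 had no window.

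TNFAIP6, also called TSG-6, is an inducible secreted protein that transfers heavy chains of inter-alpha-inhibitor onto hyaluronan and so crosslinks it. Its signal was 173, 55.7 and 53 for miR-376a*A, 104, 106 and 99.4 for miR-376a*G, and 61.6, 183 and 191 for control. The edited-form arrays lay between the other values, and the lowest 3 were the arrays with the highest CEMIP. TNFAIP6 averaged 94 ± 68.6 with miR-376a*A, 103 ± 3.46 with miR-376a*G and 145 ± 72.5 with control (SD, n = 3 each). No comparison passed as labelled, with differences of -0.68 for miR-376a*A against control (SE 0.52, adjusted p = 0.886), -0.32 for miR-376a*G against control (SE 0.52, adjusted p = 0.666) and -0.36 between the forms (SE 0.52, adjusted p = 0.609).

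TNFAIP6 was, over the 7 arrays, lower with either form than with control. The log2 differences were -1.76 for miR-376a*A against control (SE 0.12, adjusted p = 1.69e-06), -0.85 for miR-376a*G against control (SE 0.11, adjusted p = 6.64e-05) and -0.91 between the forms (SE 0.11, adjusted p = 2.84e-05). A second probe set gave -1.57, -1.04 and -0.54 in that order, each with an adjusted p below 0.05 on those arrays (1.12e-05, 5.27e-05 and 0.00352). The transcript of the crosslinker and that of HAS2 therefore ran in opposite order across the 7 arrays.

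The TNFAIP6 promoter is shown beside them for contrast, since it held a match to the AP-1 site and HMMR and CEMIP did not. The 150 bases before the RefSeq start (GRCh38.p14, chr2:151357442-151357591, + strand) carry TGANTCA and CCAAT matches in capitals, at 129 bases and at 139 and 68 bases before the start:
TNFAIP6 promoter: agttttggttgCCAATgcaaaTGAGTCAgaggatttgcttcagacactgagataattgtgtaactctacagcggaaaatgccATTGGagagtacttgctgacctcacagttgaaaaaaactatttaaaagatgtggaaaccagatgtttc

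**Figure D3:**
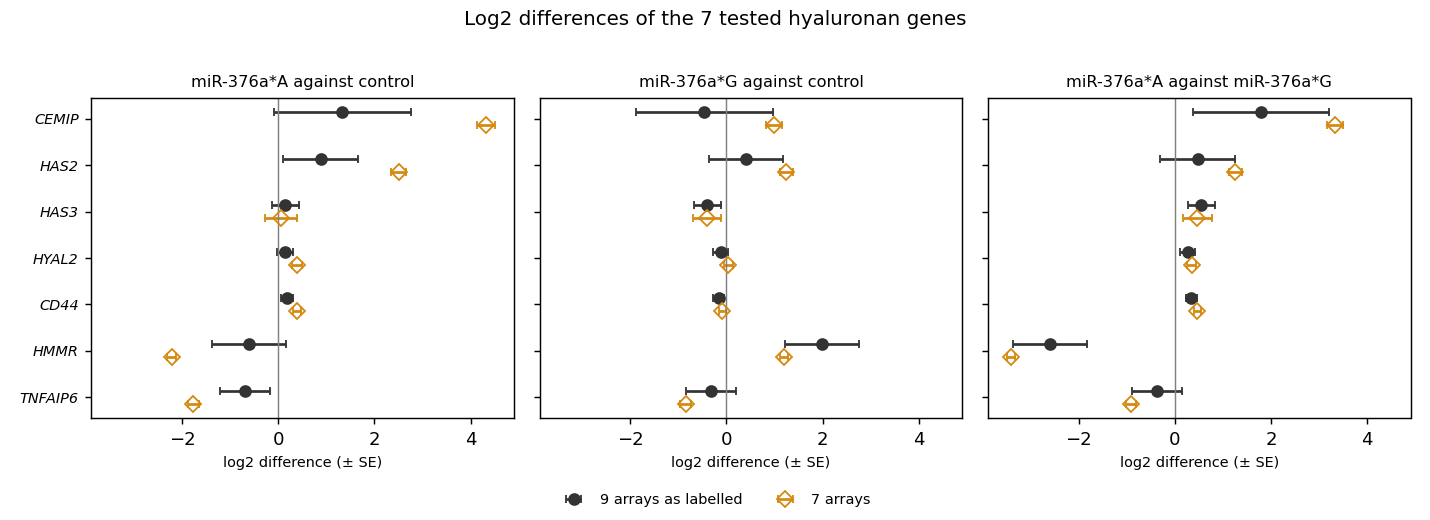
Log2 differences (± SE of the limma fit) of the 7 tested hyaluronan genes in the 3 comparisons, on the 9 arrays as labelled (filled circles) and on 7 arrays without both that stand apart (open diamonds). For CEMIP, miR-376a*A against control is 1.33 as labelled and 4.32 on 7 arrays, and for HMMR it is -0.60 and -2.21, with far smaller SEs on 7 arrays.

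Across the 7 arrays the genes fell into separate orders. CEMIP and HAS2 were highest with the unedited form, next with the edited form and lowest with control, each step passing the test. TNFAIP6 ran in the reverse order, also with each step passing. HMMR was highest with the edited form, then control, then the unedited form. As deposited, HAS3 did not pass the test between any neighbours, and HYAL2 and the representing CD44 probe set did not between the edited form and control. These orders of CEMIP, HAS2, HMMR and TNFAIP6 were the same on those arrays after centring on medians, quantile normalization or scaling to the hybridisation controls.

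The genes most like each main member were sought by the root mean square distance between log2 profiles over the 9 arrays, each centred on its own mean. For CEMIP they were IL11, a cytokine of the interleukin-6 family (distance 0.41), STMN3, a microtubule-destabilising stathmin (0.41), and SCUBE3 (0.52). IL11 read 18, 275 and 272 for miR-376a*A, 45.8, 41.7 and 41.9 for miR-376a*G, and 267, 23.9 and 25.4 for control. For CD44 they were STC1 (0.04), CRELD2 (0.05) and HSPA5, the endoplasmic reticulum chaperone (0.05), which like CD44 varied little. For HMMR they were CENPU, a centromere protein gene (0.20), RNFT2 (0.21) and OIP5, which helps load centromeric histone (0.24). CENPU read 334, 62.7 and 54.8 for miR-376a*A, 807, 992 and 837 for miR-376a*G, and 57.3, 288 and 319 for control. All these genes share the 2 arrays that stand apart.

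A further 50 genes were followed, in lists of hyaluronan metabolism and matrix, of CD44 linkers and sheddases, and of HMMR partners on the spindle. Genes of the CD44 and HMMR lists act with the receptors and do not make, bind or cut hyaluronan as their main role. Of the 50, 46 had a probe set and 34 could be tested, 15 of them in the CD44 and HMMR lists. Between the edited form and control 10 rose and 4 fell as labelled, where 33.4% of all genes passed, and 10 of these 14 calls came from the CD44 and HMMR lists. The total of 14 became 9 without the array miR-376a*G replicate 1 or without control replicate 2. With the hybridisation controls as the scale 19 were higher and 1 lower, as were 5592 and 946 of all 12587 tested genes. Between the unedited and edited forms 4 were higher and 8 lower, where 38.2% of all genes passed. Scaling to the hybridisation controls gave 1 higher and 27 lower, against 677 higher and 8205 lower of all tested genes. Between the unedited form and control 0 passed, as for all genes. Without both arrays the counts were 13 higher and 8 lower for miR-376a*G against control (56.1% of all genes passed), 5 and 14 between the forms (59.6%), and 4 and 12 for miR-376a*A against control (41.9%).

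CEMIP2, a membrane relative of CEMIP with reported hyaluronidase activity, was the only tested gene among the other synthases and depolymerases. It read 34.1, 87.3 and 79.1 for miR-376a*A, 103, 96.5 and 117 for miR-376a*G, and 64.1, 45.3 and 36.5 for control. All edited-form arrays lay highest. Of all tested genes 53.4% kept miR-376a*G apart from control, and 53.5% from miR-376a*A, in either direction. It rose by 1.14 with miR-376a*G against control (SE 0.35, adjusted p = 0.0324), and by 1.35 on the 7 arrays (adjusted p = 2.21e-05). With the unedited form it differed from control by 0.38 as labelled (adjusted p = 0.886) and by 1.01 on the 7 arrays (adjusted p = 5.38e-04).

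Genes of UDP-sugar supply gave 2 of 6 lower and none higher with the edited form against control, where 33.4% of all genes passed. UGDH, the enzyme that makes UDP-glucuronate, read 464, 165 and 179 for miR-376a*A, 62.8, 54.1 and 55.8 for miR-376a*G, and 176, 445 and 444 for control. The edited-form arrays were the lowest 3. UGDH fell by 2.49 (log2) with miR-376a*G against control (SE 0.45, adjusted p = 0.00286) and was 2.04 higher with the unedited than with the edited form (SE 0.45, adjusted p = 0.00689). Without both arrays it also fell with the unedited form, by 1.37 (SE 0.12, adjusted p = 7.67e-06). PGM1, which interconverts glucose phosphates, fell by 0.33 with miR-376a*G against control (adjusted p = 0.0239), a call lost on quantile normalization (adjusted p = 0.0535), and its sign turned with the hybridisation controls as the scale (0.07, adjusted p = 0.506). Between the forms PGM1 was higher with the unedited form as deposited (0.33, adjusted p = 0.0207) and lower with the hybridisation controls as the scale (-0.34, adjusted p = 0.00707). HAS2 and UGDH thus differed from control in opposite directions with either form on the 7 arrays. There 4 of 6 supply genes were lower with miR-376a*A and 3 of 6 with miR-376a*G, against 22.9% and 25% of all genes. GFPT1, GNPNAT1 and UAP1, named after their values were seen, stood at -2.05, -0.61 and 0.05 with miR-376a*A (adjusted p = 2.54e-06, 0.00236 and 0.702). With miR-376a*G they stood at -0.16, 0.18 and 0.03 (adjusted p = 0.327, 0.188 and 0.801), so they did not all follow UGDH.

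Of 7 tested genes of hyaluronan-binding matrix 1 rose with the edited form against control, where 33.4% of all genes passed. This was BCAN, the brain proteoglycan brevican. It read 31, 46.1 and 36.1 for miR-376a*A, 64, 56.4 and 63.9 for miR-376a*G, and 44.8, 29.8 and 27.7 for control. The difference was 0.86 against control (SE 0.22, adjusted p = 0.0168) and -0.70 between the forms (SE 0.22, adjusted p = 0.0344), the second not passing after centring on medians (adjusted p = 0.0709). On the 7 arrays they were 1.07 and -0.58 (adjusted p = 3.76e-04 and 0.014). The 3 tested receptor and clearance genes and the 2 tested lysosomal exoglycosidases gave no call as labelled in any comparison. At most 38.2% of all genes passed in any of these. Without both arrays LAYN, encoding the hyaluronan receptor layilin, was higher than control with miR-376a*A (0.45, adjusted p = 0.00932) and with miR-376a*G (0.47, adjusted p = 0.00328), and STAB1, encoding a scavenger receptor, with miR-376a*G (0.72, adjusted p = 0.0388). After centring those 7 arrays on medians none of these calls held (adjusted p = 0.0734, 0.335 and 0.211). With the hybridisation controls as their scale the LAYN call with miR-376a*A was lost (adjusted p = 0.373), while those with miR-376a*G were kept. With the 9 arrays scaled to the hybridisation controls these 3 receptor and 2 lysosomal genes were all lower with the unedited than with the edited form. Under that scaling 8205 of the 12587 tested genes were called lower, and the median of all genes was -0.81. LAYN and STAB1 were named after their values were seen.

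Among 9 CD44 linkers and sheddases 3 rose and 2 fell with the edited form against control, where 33.4% of all genes passed. EZR, encoding ezrin, which ties CD44 to actin, read 128, 117 and 121 for miR-376a*A, 258, 254 and 257 for miR-376a*G, and 112, 114 and 104 for control. The edited-form arrays stood clear of all others, including the 2 arrays that stand apart. EZR rose by 1.22 with miR-376a*G (SE 0.11, adjusted p = 6.52e-05) and was lower with the unedited than with the edited form (-1.07, adjusted p = 1.21e-04). NF2, encoding merlin, rose by 0.60 with miR-376a*G against control (SE 0.10, adjusted p = 0.00201). Without both arrays EZR stood at 1.23 and NF2 at 0.66 against control (adjusted p = 1.6e-06 and 6.46e-05). The other 3, named after their values were seen, were RDX (radixin, 0.25, adjusted p = 0.0478), MSN (moesin, -0.47, adjusted p = 0.0231) and ADAM10, a protease that sheds CD44 (-0.74, adjusted p = 0.00372). RDX was not called after centring on medians (adjusted p = 0.95), and MSN and ADAM10 were not called with the hybridisation controls as the scale (adjusted p = 0.703 and 0.0698). Without both arrays RDX, MSN and ADAM10 stood at 0.25, -0.45 and -0.86, each with an adjusted p below 0.05 (0.0158, 0.0152 and 8.77e-06). On those arrays RDX turned to -0.06 after centring on medians (adjusted p = 0.689). MSN was not called there with the hybridisation controls as the scale (-0.03, adjusted p = 0.844), while ADAM10 was called under both scalings.

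Of 6 genes around HMMR on the mitotic spindle 5 rose with the edited form against control and the same 5 were lower with the unedited than with the edited form. In these comparisons 33.4% and 38.2% of all genes passed. PLK1, a mitotic kinase, read 72.2, 63.5 and 62.7 for miR-376a*A, 384, 396 and 458 for miR-376a*G, and 69.8, 74.7 and 59.4 for control. It rose by 2.59 with miR-376a*G (SE 0.14, adjusted p = 1.01e-05). CCNB1, encoding cyclin B1, rose by 1.67 (SE 0.19, adjusted p = 2.91e-04). The others, named after their values were seen, were AURKA, TPX2 and FAM83D, at 1.52, 1.17 and 1.53. Without both arrays the same 5 were higher than control with miR-376a*G, PLK1 by 2.61 and CCNB1 by 1.46 (adjusted p = 7.9e-08 and 2.13e-07). There 31.2% of all genes were called higher. Between the unedited form and control on the 7 arrays 4 of 6 were lower, AURKA at -0.71, FAM83D at -0.61, TPX2 at -0.40 and CCNB1 at -0.34 (adjusted p = 3.08e-04, 2.07e-04, 0.00372 and 0.0122). In that comparison 22.9% of all genes were called lower. PLK1 stood at -0.08 there (adjusted p = 0.679) and HMMR at -2.21, and the gaps between these genes were not tested.

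**Figure D4:**
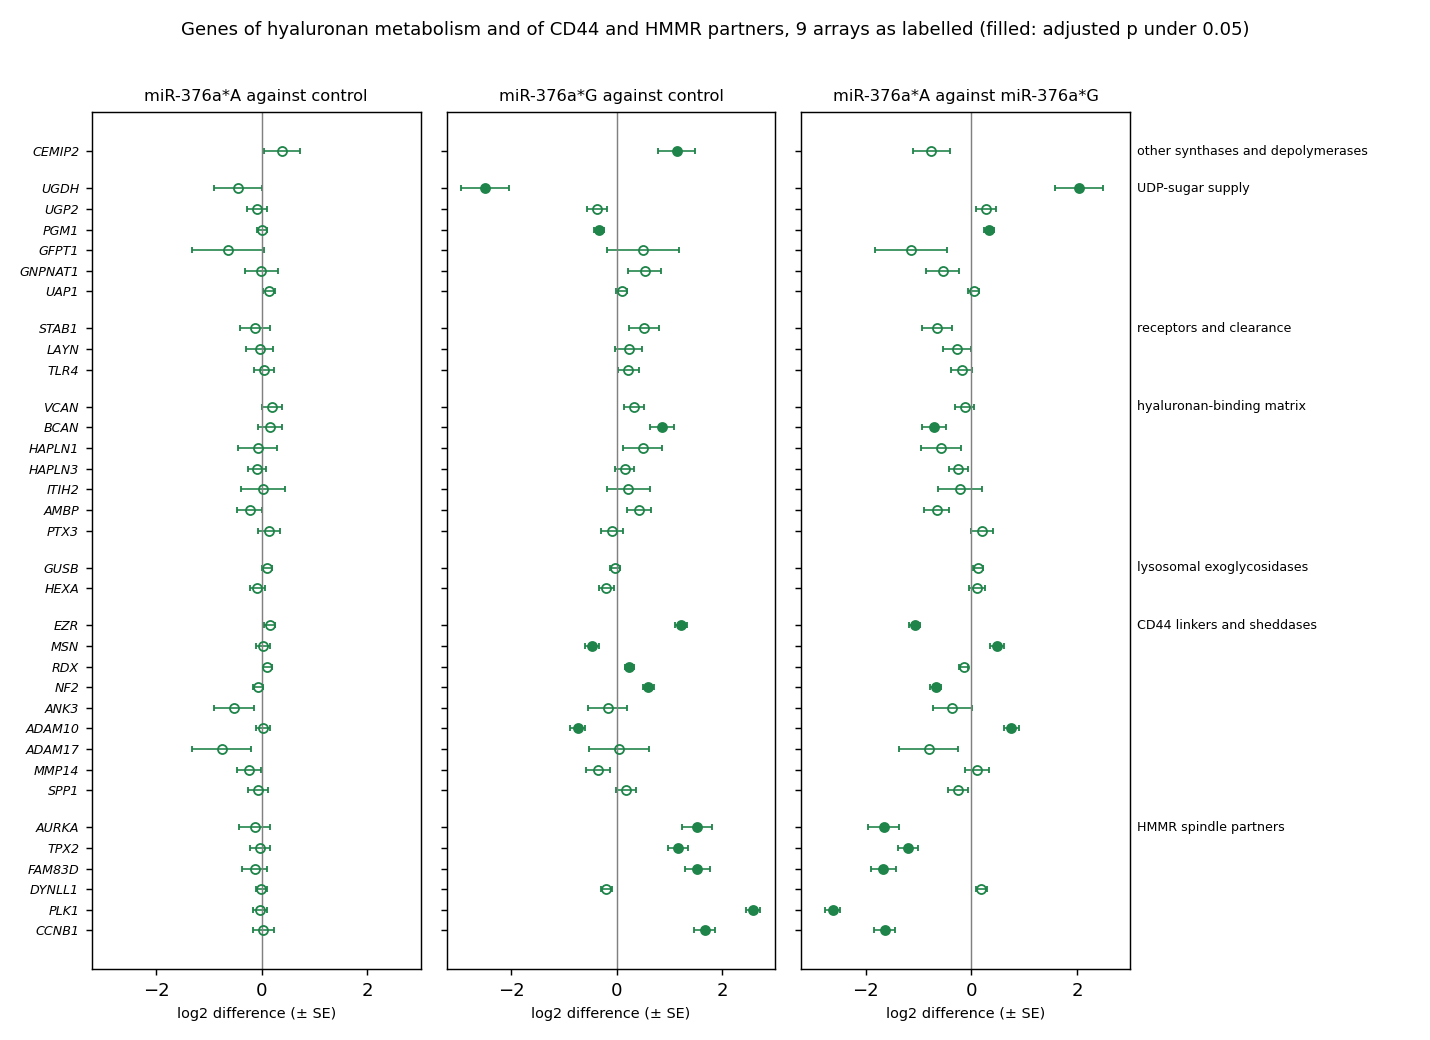
Log2 differences (± SE of the limma fit, 9 arrays as labelled) of 34 tested genes of hyaluronan metabolism and matrix, CD44 linkers and sheddases, and HMMR spindle partners, by list, in the 3 comparisons, with filled points for an adjusted p under 0.05. No point is filled for miR-376a*A against control, and for miR-376a*G against control UGDH, of UDP-sugar supply, lies lowest at -2.49 and PLK1, of the spindle list, highest at 2.59.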

How the data were processed

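The authors deposited 1 linear intensity value per probe set and array. Per the submitters' processing notes the software was GCOS 1.4.0.036, while no source used here gives the summarisation algorithm or genome build. Per the deposited values, arrays were already scaled, with a mean near 100 after trimming 2% at each end, so a difference is one against the array's overall brightness. From these values log2(signal + 1) was computed, which understates changes of dim genes. The probe table listed 42898 probe sets, 41091 with a single gene and 1801 with several, and 19735 of 19775 genes matched RefSeq (GRCh38.p14). Each gene was represented by its single-gene probe set of highest mean over all arrays and tested if above the array's median on at least 3 arrays. limma 3.58.1 in R 4.3.3 (eBayes with trend, 6 residual degrees of freedom, 1 coefficient per group, all 9 arrays) gave two-sided p-values, adjusted over 12587 genes by Benjamini-Hochberg and called under 0.05. Unless the fit of every probe set is named, gene values come from this fit, and values of further probe sets come from that fit. The steps were tested on data simulated with independent noise and no array resembling another label, so that test cannot speak to the arrays that stand apart. The number of arrays limits the precision.

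The members, gene lists, tests, alternatives and the 7 arrays were chosen with earlier results of these data known. Named genes were all members, up to 2 called genes of smallest p per list and comparison, tested genes of the first list, and the 3 genes of nearest profile to CEMIP, CD44 and HMMR.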

Additional observations from a re-analysis of the deposited data

How the results depend on the processing

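Of 21 differences (7 genes, 3 comparisons) under 20 alternatives each, 350 of 420 kept direction and call, 33 gained a call, 18 lost it and 19 changed sign. Differences that changed sign were counted only as such, whether called or not. They include CEMIP for miR-376a*G against control, called higher without both arrays (1.00, adjusted p = 0.00048). CD44 between the forms is another, called lower with hybridisation-control scaling (-0.33, adjusted p = 0.0248). The numbers of hyaluronan genes called are given for miR-376a*A against control, miR-376a*G against control and miR-376a*A against miR-376a*G, which were 0, 0 and 2. Array weights gave 6, 3 and 6, with weights of 0.154 and 0.165 on the 2 arrays that stand apart. Leaving out both gave 6, 4 and 6. Leaving out 1 array gave 0 to 1 for miR-376a*G against control (1 without miR-376a*A replicate 1) and 0 to 3 between the forms. For miR-376a*G against control the count was 1 with a pseudocount of 64, medians centred, hybridisation-control scaling or every probe set on its own. The gene called was not always the same. With medians centred it was CD44, lower (-0.39, adjusted p = 0.0202), while HMMR was not called (adjusted p = 0.141). With hybridisation-control scaling it was HMMR, higher (2.39, adjusted p = 0.0235), as with every probe set on its own. Between the forms it was 1 with no filter, with the mean of all probe sets or without an intensity trend.

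Over all 12587 genes the calls were 0, 4205 and 4804. They were 5513, 7866 and 7866 with array weights, 5269, 7067 and 7508 without both arrays, and 0, 6538 and 8882 with hybridisation-control scaling.

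The further pathway genes called were 0, 14 and 12, and 16, 23 and 21 with array weights. They were 16, 21 and 19 without both arrays, and 28 (1 higher, 27 lower) between the forms with hybridisation-control scaling. Under that scaling 677 of all tested genes were higher and 8205 lower. The rescalings of the 7 arrays were chosen after seeing the data.

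The replicate block gave 0 hyaluronan genes between the forms, and 9 further pathway genes for miR-376a*G against control. Deviations of same-numbered arrays from their labelled group means correlated at -0.88 to 0.046. The means of miR-376a*A and control each include an array that stands apart, which shapes these deviations. The correlations therefore cannot show whether the numbers pair the arrays.

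Signs turned with hybridisation-control scaling, which moves medians of all genes to -0.29, 0.52 and -0.81, for HAS3 (-0.13), HYAL2 (-0.13) and CD44 (-0.088) in miR-376a*A against control, for HYAL2 (0.28), CD44 (0.24) and TNFAIP6 (0.078) in miR-376a*G against control, and for HAS2 (-0.19), HAS3 (-0.12), HYAL2 (-0.40) and CD44 (-0.33) between the forms. In miR-376a*G against control, CEMIP turned to 0.95 with array weights and 1.00 without both arrays, and without 1 array its lowest and highest values were -1.24 and 1.00. HYAL2 turned to 0.03 and 0.04 under those 2 settings. Leaving out 1 array gave HYAL2 -0.21 to 0.04 (0.04 without control replicate 1) and HAS2 -0.086 to 1.25 (-0.086 without control replicate 3). With the mean of all probe sets HAS3 was 0.023 and CD44 0.11. The cause of these changes was not tested.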
